A study of Mus musculus with 3 samples.

Results

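Long unmethylated valleys were defined in wild-type mouse embryonic stem cells as stretches of at least 10 consecutive covered CpGs that were each under 20% methylated, with no gap over 2000 bp between neighbours and a span of at least 3000 bp. A CpG counted as covered with more than 10 reads, and its methylation level was the share of its reads that were methylated. On the autosomes this rule found 360 valleys among 13377 runs of at least 10 such CpGs, and they held 34661 of 952337 covered CpGs (3.64%). The wild-type levels inside the valleys were therefore fixed by the choice and are given as a description. The reduced-representation bisulphite sequencing (RRBS) libraries came from 3 genotypes of embryonic stem cells, with 1 library each. The wild-type and Dnmt3A-KO lines had a mixed 129-C57Bl/6 background and the Dnmt-TKO line was J1. The Dnmt3A-KO line was made with Cas9 and a pair of guides against exon 7, so that both isoforms of the enzyme were lost, and how many clones it came from is not given in the sources used here. Dnmt-TKO cells lack all 3 active DNA methyltransferases. All lines were grown in serum with LIF. Wild-type cells were kept on feeder cells or gelatine, and the other lines on gelatine. Differences between genotypes had no replicate check, and each 95% interval below covers counting error only, with reads and CpGs taken as independent although PCR copies and CpGs of the same fragment are not.

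In mammalian genomes most CpGs are methylated, and CpG islands at gene starts are the main exception. Unmethylated stretches that are much longer than a usual island are known to lie mostly over genes of developmental regulators, and in pluripotent cells many of these genes are held inactive by Polycomb proteins. DNMT3A and DNMT3B place methyl groups on unmethylated DNA, DNMT1 copies them after replication, and TET enzymes oxidise them. The border of an unmethylated region is where these activities meet.

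The wild-type library listed 1035670 CpGs with a median of 29 reads, against 918295 with a median of 17 in Dnmt3A-KO and 558703 with a median of 12 in Dnmt-TKO. MspI sites, where fragments begin, held 17.2% of the covered autosomal CpGs of the wild-type library and 7.84% of those of Dnmt3A-KO. The wild-type and Dnmt3A-KO libraries shared 623550 covered autosomal CpGs, and wild type was compared with Dnmt3A-KO on these alone. Methylation counts cannot show the deletion itself. Within 500 bp of the starts of embryonic stem cell genes, mean wild-type levels were between 0% and 10.5% for the 7 of 10 markers with covered CpGs, and Esrrb was the highest. Of 6 fibroblast markers 4 had covered CpGs, and Col1a1 was at 41.1% while Thy1 and Twist1 were at 0%, so these levels do not tell whether feeder DNA was present.

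Windows of the mm9 genome, all on the plus strand, show what the valleys and their edges look like in sequence. Capitals mark the CpGs covered in both libraries. The Uncx window (chr5:140020075-140020324, coding exon and the intron behind it) is from the inside of the second longest valley. The Lrrc24 and Irs2 windows (chr15:76555564-76555807, partly coding exon of the neighbouring gene Arhgap39, and chr8:11004512-11004746, coding exon of Irs2) are from the edges with the first and the third largest decreases among edges of at least 10 shared CpGs. The Egr2, Pax6 and Otx1 windows (chr10:67003493-67003591, coding exon of Egr2; chr2:105503352-105503507, outside coding genes; chr11:21907099-21907187, coding exon of Ehbp1) are from edges of valleys over transcription factor genes and were chosen after their values were seen.
Uncx valley: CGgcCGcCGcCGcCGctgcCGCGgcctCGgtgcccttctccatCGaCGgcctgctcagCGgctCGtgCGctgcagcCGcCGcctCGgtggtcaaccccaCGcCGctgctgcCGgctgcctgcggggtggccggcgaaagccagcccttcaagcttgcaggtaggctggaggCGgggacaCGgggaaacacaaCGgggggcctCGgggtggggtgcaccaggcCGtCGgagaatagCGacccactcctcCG
Lrrc24 right edge: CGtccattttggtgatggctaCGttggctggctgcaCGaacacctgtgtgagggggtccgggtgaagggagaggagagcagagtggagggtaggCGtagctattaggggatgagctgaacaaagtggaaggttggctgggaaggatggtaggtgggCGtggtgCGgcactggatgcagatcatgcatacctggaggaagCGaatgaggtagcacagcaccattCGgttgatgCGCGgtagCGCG
Irs2 left edge: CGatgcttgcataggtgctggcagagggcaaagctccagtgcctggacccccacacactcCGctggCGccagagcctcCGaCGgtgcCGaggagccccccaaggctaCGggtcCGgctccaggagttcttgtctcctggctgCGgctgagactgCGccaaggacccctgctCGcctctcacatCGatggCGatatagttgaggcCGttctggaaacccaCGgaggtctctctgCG
Egr2 right edge: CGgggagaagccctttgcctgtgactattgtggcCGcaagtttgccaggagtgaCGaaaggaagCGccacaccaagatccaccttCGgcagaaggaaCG
Pax6 left edge: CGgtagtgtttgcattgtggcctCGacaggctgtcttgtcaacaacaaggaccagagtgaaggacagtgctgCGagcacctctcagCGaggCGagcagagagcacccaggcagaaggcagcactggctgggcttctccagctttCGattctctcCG
Otx1 right edge: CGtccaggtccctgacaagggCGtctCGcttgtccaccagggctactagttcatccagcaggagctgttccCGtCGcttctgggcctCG

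All 27 marked CpGs of the Uncx window were at 0% in Dnmt3A-KO and none exceeded 1.18% in wild type. In the Lrrc24 window 12 CpGs lay between 28.6% and 60% in wild type and between 0% and 18.2% in Dnmt3A-KO. In the Irs2 window the 16 CpGs averaged 57.1% in wild type against 23.4% in Dnmt3A-KO, with wild-type levels from 29.0% to 75% and Dnmt3A-KO levels from 7.69% to 50%. From left to right, the 6 CpGs of the Egr2 window were at 77.8, 77.8, 65, 68.2, 56.8 and 59.1% in wild type and at 42.9, 41.7, 6.25, 5.56, 16.7 and 16.7% in Dnmt3A-KO. The drop was largest at the CpGs in the middle of the window. The 7 CpGs of the Pax6 window read 57.1, 37.1, 61.8, 57.1, 70.1, 66.7 and 63.6% in wild type and 23.5, 16.7, 26.2, 11.4, 4.55, 27.8 and 28.6% in Dnmt3A-KO. The 6 CpGs of the Otx1 window were at 41.7, 31.6, 33.3, 13.5, 26.3 and 13.2% in wild type, and 5 of them had no methylated read in Dnmt3A-KO, where each of the 5 was covered by 16 or 17 reads.

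**Figure D1:**
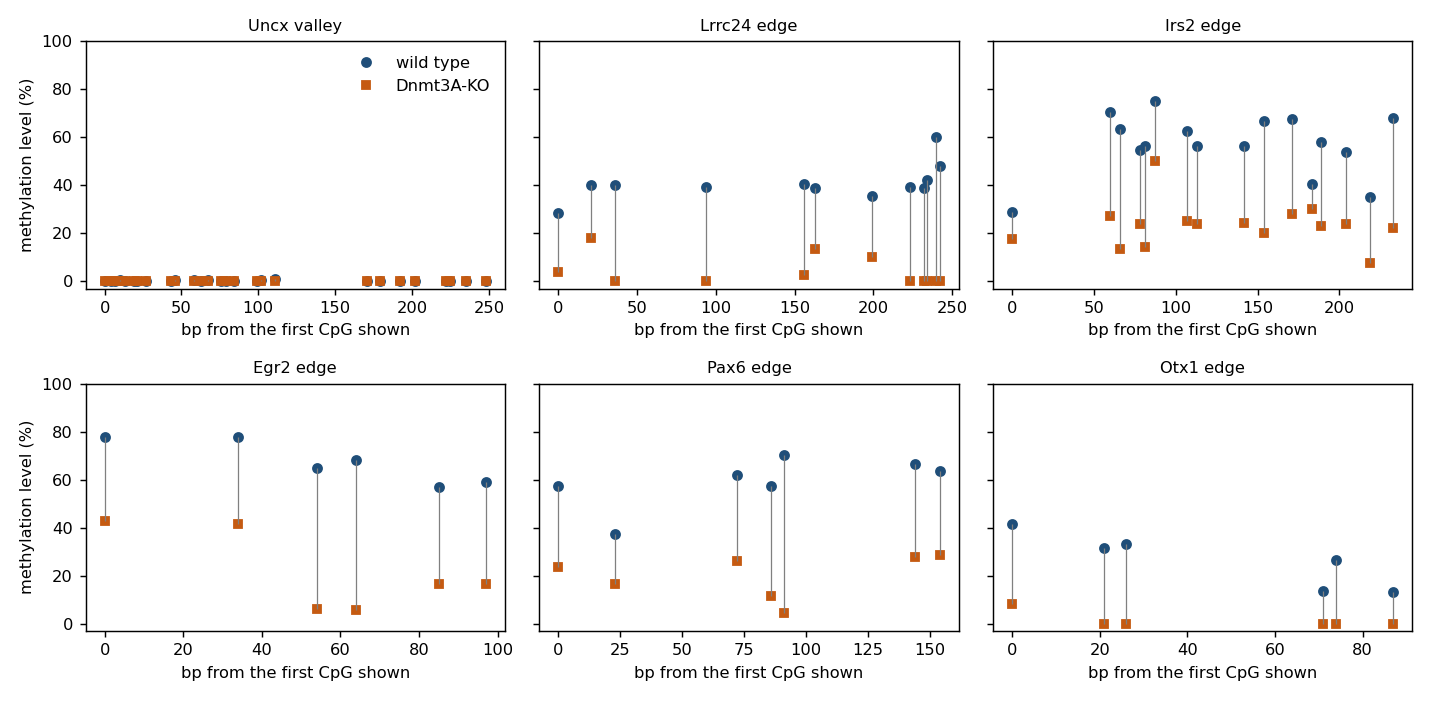
Methylation level (%, y axis) of each CpG covered in both libraries against its distance in bp from the first CpG of the window (x axis), for the 6 windows whose sequences are printed. Circles are wild type, squares are Dnmt3A-KO and lines join the same CpG. The Uncx window is at the floor in both libraries, whereas every CpG of the edge windows is lower in Dnmt3A-KO.

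Valley spans ran from 3003 to 11406 bp with a median of 3754.5 bp, and 71 valleys reached 5000 bp. A valley held between 11 and 235 covered CpGs (median 89.5). All valleys together covered 1487242 bp, or 0.0621% of the autosomes. The 3 runs just under the limit of 3000 bp spanned 2992 bp (Gpsm3 and Notch4), 2997 bp (Foxp4) and 2999 bp (Pfn1), and the 3 just over it spanned 3003 bp (Sp8), 3004 bp (1700041G16Rik and Ap3m2) and 3013 bp (near Gcat). Of 720 borders, 264 ended at a covered CpG of 20% or more and 456 at a gap in coverage, and 54 valleys had a methylated CpG at both ends. The spans were thus set by coverage as well as by methylation.

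The longest valley (chr7:28110764-28122169) lay wholly inside Ltbp4, which encodes a binding protein of latent TGF-beta, and ended at CpGs of 24.1% and 26.7%. Homeobox genes followed closely. Uncx spanned 9500 bp (chr5:140019267-140028766), the LIM-homeobox gene Lhx5 spanned 9368 bp (chr5:120881045-120890412) and the distal-less gene Dlx2 spanned 8380 bp (chr2:71376683-71385062). Among the 15 longest were also Nkx2-2, Meis2 and Pitx1, further homeobox genes, with 7514, 7112 and 6484 bp. Gata3, a zinc finger regulator of T cells, shared 7605 bp with the starts of 4930412O13Rik and 9230102O04Rik. They also included Bahcc1 (8928 bp), the zinc finger gene Zfp503 (7731 bp), Plcb3 with Ppp1r14b (7662 bp), Zfp36l2, which promotes mRNA decay (7435 bp), Dmrta2 (7411 bp) and Mllt6 (6893 bp). Zfp36l2 also had the most covered CpGs, 235, followed by Insm1 and Klf13 with 225 each, Foxo3 with 224 and Ptma with 218.

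A protein-coding transcript started inside 311 valleys (86.4%), compared with 81.2% of the 3552 shorter blocks, which were runs by the same rule that spanned 1000 to under 3000 bp. There were 268 valleys with 1 coding gene start, 39 with 2 and 4 with 3, and 38 held starts on both strands. The valleys with 3 were those of Gata3, of Mtx1, Muc1 and Thbs3, of Cyb5d1, Lsmd1 and Tmem88, and of Prune and Fam63a, a name that the annotation gives to a pair of genes there. No coding start lay in the other 49, of which 18 were wholly inside a coding gene and 23 were more than 10000 bp from any coding start. The farthest, near Abhd5, was 205500 bp away and spanned 3791 bp. In sequence, valleys had a median GC content of 58.3% and an observed over expected CpG ratio of 0.655. Both values were lower in valleys than in the shorter blocks (64.1% and 0.771) and higher than over the autosomes (41.9% and 0.194). At the median valley 41.5% of its genomic CpGs were covered.

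Developmental transcription factors were frequent among the genes that started in valleys. Of 14492 coding genes with a covered CpG within 1000 bp of a start, 354 started in a valley (2.44%). Among genes on fixed lists, the share was 34 of 100 for homeobox genes outside the Hox clusters, 14 of 34 for zinc finger lineage regulators, 10 of 37 for Hox genes, 3 of 8 for Pax genes and 4 of 22 for forkhead genes. The lists do not hold every family member. The forkhead genes Foxo3 and Foxp2 and the homeobox genes Nkx1-1 and Nkx2-9 also started in valleys but were on no list. Other lists were nearer to the share of all genes, T-box genes with 1 of 16 and bHLH lineage regulators with 2 of 44. For Sox genes it was 2 of 17. The shorter blocks also held many starts of genes on these lists, against 3271 of the 14492 coding genes. They held 36 of the 100 homeobox genes, 16 of the 34 zinc finger regulators, 14 of the 37 Hox genes and 3 of the 8 Pax genes. For forkhead, T-box, bHLH and Sox genes the numbers in shorter blocks were 11 of 22, 5 of 16, 20 of 44 and 7 of 17. In all, 71 valleys held a start of a gene on these transcription factor lists, with a median span of 4239 bp, against 3662.5 bp for the 232 valleys that held only other coding starts outside the signalling lists. The valleys of unlisted family members such as Foxo3 and Nkx2-9 were counted among those with other coding starts. Listed signalling receptors were at 5 of 43 (Fzd5, Fzd7, Fgfr2, Epha7 and Ephb4) and listed ligands at 3 of 66 (Wnt1, Inhbb and Dll4). The ligand genes Gdnf, Bdnf, Efna3 and Efna5 also started in valleys but were on no list. No start of 16 secreted inhibitors of signalling, 46 housekeeping genes, 20 germline genes or 9 genes for DNA methylation and demethylation enzymes lay in a valley. Among pluripotency genes 4 of 16 did, and these were Pou5f1, Klf4, Tbx3 and Prdm14.

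**Figure D2:**
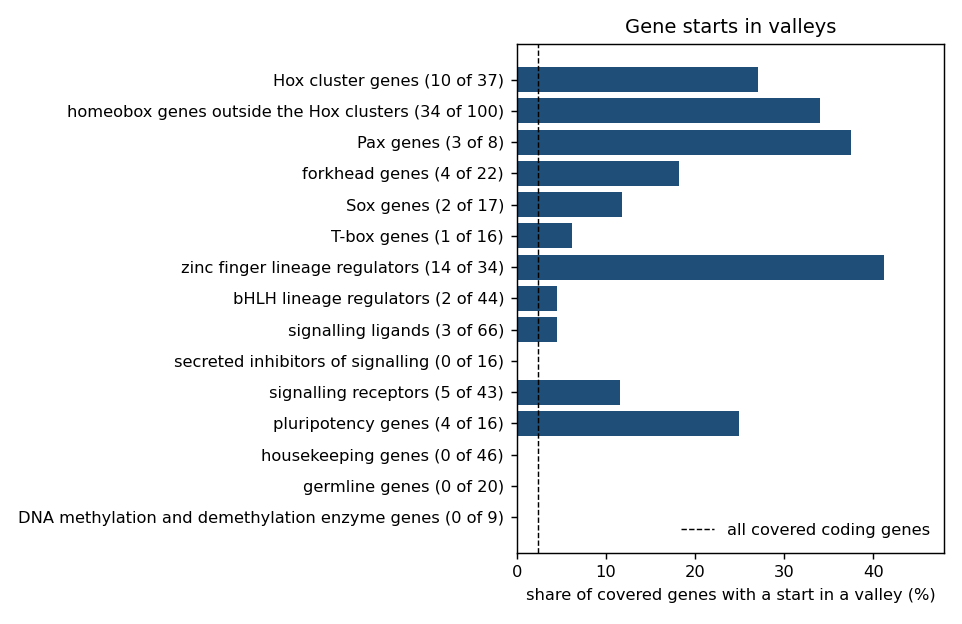
Share of the covered genes of each list with a start in a valley (%, x axis), with the counts beside the list names. The dashed line is the share of all covered coding genes, 2.44%. Bars of zinc finger lineage regulators, Pax genes and homeobox genes are the longest, and 4 lists have no gene in a valley.

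Inside the valleys methylation was close to 0 in both libraries and lower still in Dnmt3A-KO. Over 27151 shared CpGs the mean level was 0.695% in wild type against 0.259% in Dnmt3A-KO (difference -0.44 points, 95% interval -0.49 to -0.38). A single CpG was called lower or higher when a two-sided Fisher's exact test of its reads gave a q under 0.05, adjusted by Benjamini-Hochberg over all shared CpGs, and the levels differed by at least 20 points. Such a test compares these libraries and not the genotypes, and it called 1.65% of all shared autosomal CpGs lower in Dnmt3A-KO and 0.0297% higher. No CpG inside a valley was called. Since the wild-type levels there were under 20%, a lower call was not possible there. Only 3 of the CpGs inside reached 20% in Dnmt3A-KO, with 3 or 4 methylated reads of 12 to 18. The Dnmt-TKO library, which gives the background of the method, had 84 methylated of 229484 reads inside the valleys, or 0.0366% (95% Wilson interval 0.0296 to 0.0453), against 0.235% (interval 0.225 to 0.246) of the Dnmt3A-KO reads. The levels were highest next to the border. Within 250 bp of it the mean was 1.62% in wild type against 0.526% in Dnmt3A-KO, and at 1000 to 2000 bp it was 0.420% and 0.165%. The 2687 CpGs at 2000 to 10000 bp were higher again, at 0.714% and 0.293%. Inside the shorter blocks the mean was 0.521% in wild type against 0.226% in Dnmt3A-KO (difference -0.30, interval -0.31 to -0.28), so that 56.7% of the wild-type level was lost there and 62.7% inside the valleys.

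Of 352 valleys with at least 10 shared CpGs, 306 were lower in Dnmt3A-KO, 39 were higher and 7 were equal. Wild-type means per valley ran from 0% to 6.53% (median 0.539%) and Dnmt3A-KO means from 0% to 3.83% (median 0.173%), so the ranges overlapped. A mean of at least 2% was reached by 44 valleys in wild type and by 2 in Dnmt3A-KO. The largest differences were in valleys without a coding start. The valley near Cacna2d2 was at 5.39% in wild type and 0% in Dnmt3A-KO over 21 CpGs, the one near Zfhx3 at 5.37% and 0% over 11 and the one near Trim8 at 6.53% and 1.19% over 14. The 5 largest differences in the other direction were at most 0.79 points (among them near Gm5146, Fbxl19, Bcl11a and Epha7), and all of their intervals included 0. Pluripotency genes followed the general pattern. Prdm14, a regulator of naive pluripotency and germ cells, was at 4.34% in wild type against 0.580% in Dnmt3A-KO over 48 CpGs. Tbx3 was at 2.95% and 0.610%, Klf4 at 1.15% and 0.416%, and Pou5f1, with 7 shared CpGs, at 0.255% and 0%. Among developmental regulators, Foxa2, a forkhead factor of endoderm, was at 2.37% and 0.160%, Pax6 at 3.15% and 0%, and Sox11 at 0.145% and 0.0221%. In Hes1, a repressor downstream of Notch, the values were 0.0561% and 0.104%.

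Outside the borders, methylation was lower in Dnmt3A-KO than in wild type. The edges, the 4000 bp on either side of a valley, held 3527 shared CpGs, and their mean was 18.1% in wild type against 9.82% in Dnmt3A-KO (difference -8.25 points, 95% interval -8.52 to -7.98). Many of these CpGs belonged to other unmethylated runs. Over the 1561 edge CpGs outside any run, the mean was 38.1% in wild type against 21.1% in Dnmt3A-KO (difference -17.03, interval -17.58 to -16.48). The runs were found in wild type, so leaving them out removes CpGs of low wild-type level and favours a decrease. It kept 577 of the 582 edge CpGs that were at 20% or more in Dnmt3A-KO. In steps away from the border the 1561 CpGs were at 22.2% and 5.73% within 250 bp, at 44.7% and 21.8% at 500 to 1000 bp and at 41.5% and 27.7% at 3000 to 4000 bp. Over these CpGs wild type climbed within the first 1000 bp, and the difference was widest at 500 to 1000 bp (-22.81 points, interval -24.70 to -20.91). Both depended on leaving out the runs. Over all 3527 edge CpGs wild type was at 17.1% within 250 bp, 12.9% at 250 to 500 bp and 16.0% at 500 to 1000 bp. The difference was then widest within 250 bp (-12.50 points, interval -13.21 to -11.80), against -8.30 at 500 to 1000 bp. In Dnmt-TKO the edges had 40 methylated of 40101 reads (0.0997%, Wilson interval 0.0733 to 0.136).

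**Figure D3:**
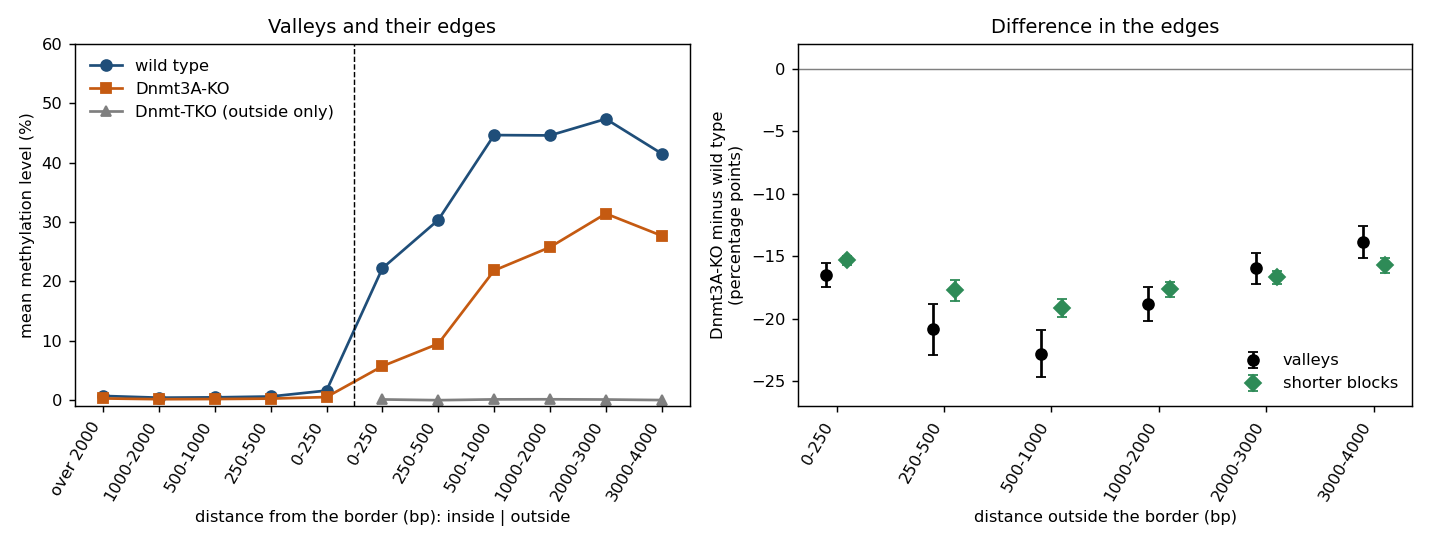
Left, mean methylation level (%, y axis) of shared CpGs by distance from the valley border in bp (x axis), inside the valleys and, outside them, over CpGs in no unmethylated run, for wild type, Dnmt3A-KO and, outside only, Dnmt-TKO on its own covered CpGs. Right, Dnmt3A-KO minus wild type in percentage points with 95% counting intervals for the edges of valleys and of shorter blocks. Wild-type levels exceed 40% from 500 bp outward and Dnmt3A-KO levels stay under 32%. For both libraries, borders at a gap enter only from 2000 bp outward, and the runs left out are those of wild type.

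In the edges 130 of 3527 CpGs (3.69%) were called lower in Dnmt3A-KO and none was called higher, where 1.65% of all shared autosomal CpGs were called lower. Of the 551 edge CpGs that were at 50% or more in wild type, 81 were called lower (14.7%), against 6.92% of all autosomal CpGs at that level. Their mean was 70.7% in wild type against 47.0% in Dnmt3A-KO (difference -23.66, interval -24.77 to -22.56). CpGs of that level more than 10000 bp from any run had means of 77.8% and 62.7% (difference -15.06, interval -15.15 to -14.98). Choosing CpGs by a high wild-type level favours a decrease. The 272 edge CpGs chosen instead by at least 50% in Dnmt3A-KO had means of 75.3% and 67.8%, a difference of -7.55 (interval -9.14 to -5.95).

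The edges of valleys were set against those of shorter blocks. With CpGs outside all runs, the block edges were at 41.5% in wild type against 24.9% in Dnmt3A-KO, and the decrease at valley edges differed from theirs by -0.43 points (95% interval -1.02 to 0.17). The sign of this value depended on the settings, from -2.25 with gaps of at most 1000 bp to 2.17 with spans of at least 5000 bp. Calls were made at 8.33% of the valley edge CpGs outside runs and at 7.05% of those of blocks, and among CpGs of at least 50% in wild type at 14.7% and 11.8%. At 500 to 1000 bp the difference was -22.81 points at valleys and -19.16 at blocks (interval -19.89 to -18.44).

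Edges were also compared one by one. No shared CpG lay in the edge at 432 of 720 borders, and 116 edges had at least 10. Of these, 110 were lower in Dnmt3A-KO and 6 higher, 39 were lower by at least 10 points and none was higher by as much. By the same count 41.7% of 527 block edges were lower by at least 10 points. When only CpGs outside runs were used, a choice made on wild-type levels, 42 of 50 valley edges were lower by 10 points or more, with 83.4% of block edges. The median edge was at 8.83% in wild type against 2.54% in Dnmt3A-KO, and the median difference was -5.86 points. Borders that ended at a methylated CpG were lower in 87 of 87 edges, whereas at gaps 23 of 29 were lower and the median difference was -0.54 points. The median wild-type level was 12.1% at borders of the first kind and 1.02% at gaps, so most gap edges had little methylation to lose. Of edges over 20% in wild type, 27 of 30 of the first kind and 4 of 5 at gaps were lower by at least 10 points. The first kind of border is set by a high wild-type value. Of the 123 shared CpGs that ended a valley, 102 were under 20% in Dnmt3A-KO, and their mean was 33.8% in wild type against 9.90% in Dnmt3A-KO.

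Among edges with at least 10 shared CpGs, the largest decrease was at the right edge of the valley shared by C030006K11Rik and Lrrc24, where 15 CpGs were at 39.0% in wild type against 4.62% in Dnmt3A-KO (difference -34.38, interval -39.56 to -29.20). At the left edge of Erf, an ETS repressor, 10 CpGs were at 52.4% and 18.5%. Those of Irs2, the insulin receptor substrate, were at 62.2% and 29.4% over 26 CpGs. The valley of Cntnap1 and Plekhh3 had 75.9% and 43.8% at its left edge, and Athl1 had 79.7% and 48.3% at its right edge. At Junb, a subunit of AP-1, the levels were 53.5% and 25.1%, at the phosphatase gene Ctdsp1 61.9% and 33.5%, and in the valley near Tcfap2a 38.2% and 11.05%. The intervals of these 8 differences all lay under -19. Some edges with fewer CpGs had larger decreases, such as the right edge of Egr2 (-45.83 over 6 CpGs) and the left edge of Pax6 (-39.29 over 7). None of the 4 edges with the largest values in the other direction (Dlx6, Pcgf2, Uncx and Baz2a) was above 1.26% in either library, and their intervals included 0. Between the left and right edge of a valley the pattern could differ. In Ltbp4 the left edge was at 48.3% and 40.5% and the right edge at 0.982% and 0%, with 19 CpGs each. At Lhx5 the right edge was at 11.6% and 3.22%.

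**Figure D4:**
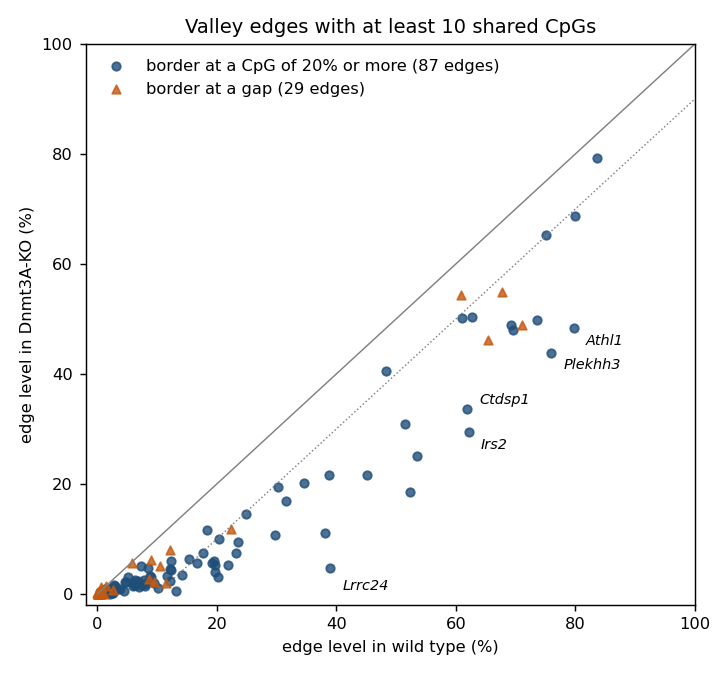
Mean level of each valley edge with at least 10 shared CpGs in wild type (%, x axis) and in Dnmt3A-KO (%, y axis). Circles are the 87 edges whose border is a CpG of at least 20% and triangles the 29 whose border is a gap in coverage. The solid line marks equal levels and the dotted line a decrease of 10 points, and 39 edges lie on or under the dotted line.

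Valleys over developmental transcription factor genes had few methylated CpGs in their edges. Over 879 edge CpGs the mean was 10.5% in wild type against 3.66% in Dnmt3A-KO. It was 22.8% and 13.6% over 2079 CpGs at valleys with other coding starts. Their 46 CpGs of at least 50% in wild type, from 14 valleys, were at 66.2% and 33.7% (difference -32.44, interval -36.19 to -28.69). At other coding starts 461 such CpGs from 81 valleys were at 71.2% and 49.1% (difference -22.10, interval -23.31 to -20.89). All 14 transcription factor valleys were lower in Dnmt3A-KO, by 10.5 to 58.3 points, and 76 of the 81 others were lower. The gap of -10.34 points between both classes was not stable. It was -6.18 points when each valley counted once, -2.26 (interval -8.88 to 4.37) with edges of 2000 bp and 3.40 (interval -4.35 to 11.15) when CpGs were chosen by their Dnmt3A-KO level. The 33 such CpGs at valleys without a coding start were at 69.3% and 35.2%.

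The valley rule was then applied to each library on the shared CpGs alone. It gave 252 valleys in wild type and 364 in Dnmt3A-KO, and every wild-type valley was overlapped by a Dnmt3A-KO valley. Of the 252, 84 were longer in Dnmt3A-KO, 164 had the same span and 4 were shorter. The median gain of those that were longer was 515.5 bp. Over all shared CpGs, 26809 were at 20% or more in wild type and under 20% in Dnmt3A-KO, and 1392 were the reverse. With more than 20 reads per CpG the numbers were 100 and 131 valleys, and with gaps of at most 1000 bp they were 63 and 86, so the excess in Dnmt3A-KO kept its sign but varied in size. The Dnmt3A-KO library was the shallower one, and the part of depth in these counts was not tested.

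The largest gain was in the HoxA cluster, where the valleys of Hoxa9 (3642 bp) and Hoxa10 (5598 bp) were joined into 10292 bp. The valley of Cbx8, a Polycomb subunit, spanned 3314 bp in wild type and 8675 bp in Dnmt3A-KO, that of Skor1 spanned 3987 and 9023 bp and that of the forkhead gene Foxf1a 3412 and 8381 bp. Among valleys with a coding start, gains of 4142 bp at Lbx1, 3831 bp at Gata2, 2856 bp at Lhx1 and 2801 bp at Isl2 came next. Between the valleys of Hoxb9 and Hoxb7, which were 8231 bp apart, 10 shared CpGs were at 20.2% in wild type against 3.10% in Dnmt3A-KO, and 5 of them exceeded 20% in wild type and none in Dnmt3A-KO. In contrast, the 13 CpGs between the valleys of Dbp and Rpl18 with Sphk2 were at 79.9% and 68.7%, and all 13 exceeded 20% in both.

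On the shared CpGs, 113 of the Dnmt3A-KO valleys overlapped no wild-type valley. A start of a gene on the transcription factor lists lay in 17 of them (15.0%), compared with 54 of the 252 wild-type valleys (21.4%), a start on the signalling lists lay in 4, 59 held only other coding starts and 33 held none. Wnt7b, a Wnt ligand, had a valley of 6479 bp in Dnmt3A-KO, where the longest wild-type run spanned 2217 bp and 3 CpGs averaged 49.1% in wild type against 6.52% in Dnmt3A-KO. At the homeobox gene En1 the valley spanned 6397 bp, and 10 CpGs were at 39.8% and 5.68%. The second longest, at Lphn1, spanned 6478 bp, and the one at Cdh1, which encodes E-cadherin, spanned 5236 bp. Not all of the 113 lacked a valley when all covered CpGs of the wild-type library were used. Lphn1 then lay in a wild-type valley of 5005 bp, and Hoxc12, Egr1, Klf10, Eif2c2, Gse1 and Mtx1 also lay in wild-type valleys. Among the 17 with a listed transcription factor were also Hand1 (6090 bp), Tbx2 (5914 bp), Tbx1 (4903 bp) and Wt1 (4239 bp), which were named after their values were seen. Over all Dnmt3A-KO valleys, 779 CpGs of at least 20% in wild type were at 33.3% there and at 6.05% in Dnmt3A-KO. This contrast is in part fixed by the rule, since such CpGs had to be under 20% in Dnmt3A-KO to lie inside.

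By gene list, starts in valleys on the shared CpGs went from 27 to 37 of 97 homeobox genes outside the Hox clusters, from 5 to 7 of 36 Hox genes and from 4 to 8 of 62 signalling ligands. Among Sox genes they went from 1 to 4 of 17 and among T-box genes from 1 to 3 of 14. Zinc finger lineage regulators went from 13 to 14 of 34, forkhead genes from 4 to 5 of 22 and bHLH lineage regulators from 1 to 2 of 40. Over all 13428 coding genes the number went from 251 (1.87%) in wild type to 347 (2.58%) in Dnmt3A-KO, a ratio of 1.38, and the ratio for the homeobox genes was 1.37. Pax genes (3 of 8), signalling receptors (4 of 43), pluripotency genes (2 of 15) and housekeeping genes (1 of 45, Eef2) had equal numbers in both libraries. The start of Eef2, a translation elongation factor gene, lay in a valley on the shared CpGs only, and not when all CpGs of the wild-type library were used. The reverse held for Hoxc12, which the Hox list gained in Dnmt3A-KO. Its start lay in a wild-type valley when all CpGs of the wild-type library were used. The lists of secreted inhibitors, germline genes and methylation enzyme genes had no start in a valley in either library. No gene had a start in a wild-type valley and not in a Dnmt3A-KO valley.

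**Figure D5:**
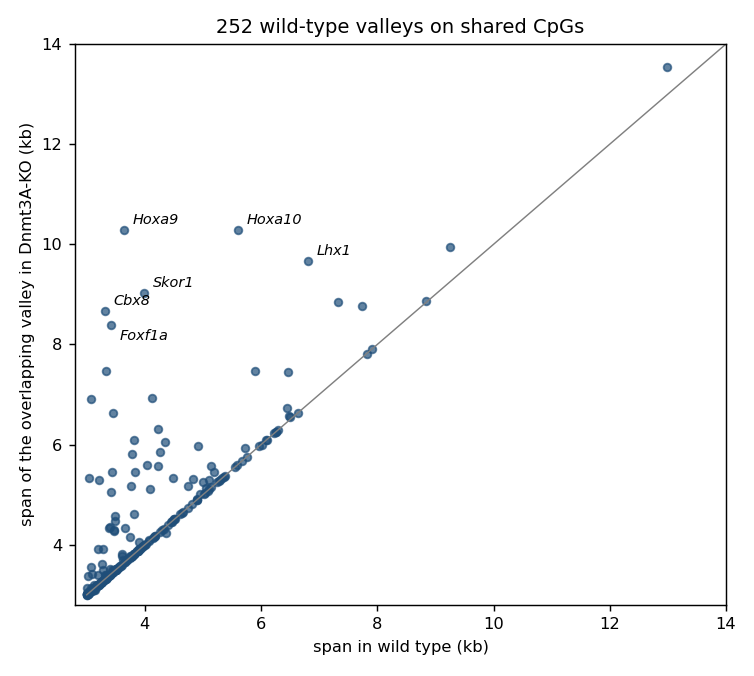
Span in wild type (kb, x axis) of each of the 252 valleys found on CpGs covered in both libraries, and span of the Dnmt3A-KO valley that overlaps it (kb, y axis). The line marks equal spans. Most points lie on the line, 84 lie above it and 4 just under it, and Hoxa9 and Hoxa10 share 1 Dnmt3A-KO valley of 10292 bp.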

How the data were processed

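RRBS libraries were made from 3 genotypes, 1 library each, from MspI fragments with inserts of 150 to 250 and 250 to 350 bp and 10 PCR cycles. The authors aligned reads to mm9 with QuasR and Bowtie (Trim Galore is named in the submitters' processing notes, and versions are not given in the sources used here), removed CpGs at known variants and deposited, for each CpG, the read count, the methylated read count and their ratio as a fraction. Positions were checked to be CG in mm9 (NCBIM37).

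Levels were computed as 100 times methylated over all reads for autosomal CpGs with more than 10 reads, and summarised as means over CpGs. Genes were taken from GENCODE vM1. CpGs were compared with Fisher's exact test and Benjamini-Hochberg adjustment (numba 0.67.0, scipy 1.17.1, numpy 2.4.6). The rule, the intervals and the calls were tested on simulated data. Reads were drawn there independently for each CpG, so the effect of PCR copies and of CpGs on the same fragment was not tested. Valleys named were the 15 longest, the 5 with the most CpGs, those with 3 or more starts and the 5 highest and 3 lowest inside differences, and edges named were the 8 largest decreases and 4 largest increases with at least 10 shared CpGs. A few of the valleys that this rule names are not reported here. Other genes come from the lists or were chosen after their values were seen. The members and gene lists were chosen with earlier results of these data known. The X chromosome, the Y chromosome and mitochondrial CpGs were left out. The depth, with medians of 12 to 29 reads, means that single CpGs carry wide counting error.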

Additional observations from a re-analysis of the deposited data

How the results depend on the processing

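The decrease inside the valleys, in the edges and at edge CpGs of at least 50% in wild type kept its direction under each alternative tried. Of 93 alternatives, 44 moved a value beyond its counting interval or a count by over 1.5 times, 1 reversed a difference whose interval left out 0 and 48 did neither. The sign turned in 4, 3 of them for valley edges minus block edges (-0.43, interval -1.02 to 0.17), and in 2 of these 3 the new interval left out 0. No paired analysis was possible because each genotype had 1 library. Depth (median 17 reads in Dnmt3A-KO) and uncovered borders limit single edges. Where a value below moved, the cause was not tested. Of 360 valleys, 120 were left with gaps of at most 1000 bp and 71 with spans of at least 5000 bp, and gene starts in them fell from 354 to 119 and 75. The inside difference was -0.19 with a limit of 10%, -0.31 with the shorter gap, -0.49 with the longer span and -0.37 on pooled reads. The edge difference was -7.23 with more than 20 reads, -5.33 with the lower limit, -4.68 with the shorter gap, -5.74 with the longer span, -7.22 on pooled reads, -9.54 and -7.29 with edges of 2000 and 10000 bp, and -7.71 without the first CpG outside. At edge CpGs of at least 50% it was, for the same first 5 settings, -27.40, -21.87, -27.34, -18.73 and -25.06, and -24.91 without MspI sites, -28.48 with edges of 2000 bp, -21.20 for CpGs of at least 80% and -7.55 for selection in Dnmt3A-KO. CpGs called lower in the edges numbered 73 with more than 20 reads, 64 with the lower limit, 39 with the shorter gap, 15 with the longer span, 81 and 263 with edges of 2000 and 10000 bp, and 65 with a q under 0.01. Valley edges minus block edges gave 1.05 with the lower limit, -2.25 with the shorter gap, 0.32 with at least 20 CpGs, 2.17 with the longer span, -1.08 on pooled reads and -1.72 with edges of 2000 bp. Dnmt3A-KO minus wild-type valley numbers were 31 with more than 20 reads, 23 with the shorter gap and 38 with the longer span, in place of 112. Transcription factor valleys minus other coding starts, whose alternatives were all chosen after seeing the data, gave -2.26 with edges of 2000 bp, -2.26 for CpGs of at least 80%, -6.18 over valleys and 3.40 for selection in Dnmt3A-KO. For the 12 named edges, 44 added alternatives moved 2, Athl1 to -40.51 with more than 20 reads and Junb to -38.46 on pooled reads, and turned the sign of 1, Pcgf2, from 0.25 to -0.26 (interval -2.57 to 2.05) with more than 20 reads.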

Other observations

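On the X chromosome, which the valley definition left out, the same rule found 7 valleys among 316 runs in wild type, from 16486 covered CpGs. The longest spanned 5203 bp. Between neighbouring autosomal valleys of the same gene, the 55 shared CpGs between the valleys near Onecut2 were at 3.39% in wild type and 1.21% in Dnmt3A-KO, and the 21 between the valleys at Pax7 were at 7.38% and 1.53%.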
